A study of Mus musculus with 18 samples.

Results

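The genes described here are the cyclins and kinases that act in G1 and at the G1/S boundary: the D-type cyclins Ccnd1, Ccnd2 and Ccnd3 with their kinases Cdk4 and Cdk6, and the E-type cyclins Ccne1 and Ccne2 with Cdk2 and its activating phosphatase Cdc25a. The rule names them by symbol and uses no measured value, but it was written with earlier results of these data known, and all 9 were found among the 51912 genes counted. All 9 also passed the filter on low counts that left 15710 genes to test. RNA-seq had been carried out on mouse embryonic fibroblasts (MEFs, connective tissue cells cultured from mid-gestation embryos) at passage 1, in medium with 15% serum at 5% oxygen. There were 6 genotypes with 3 libraries each: on a Pole4+/+ background the embryos were Trp53+/+, Trp53+/- or Trp53-/-, and on a Pole4-/- background likewise. Both genes carried germline null alleles, in C57BL/6 embryos from crosses of double heterozygous parents, and the labels give no treatment for any group. How many embryos or cultures stood behind the 3 libraries of a group is not given in the sources used here, so the p-values measure the spread between these libraries, which may be partly technical.

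Progression through G1 starts when growth factor signals raise the D-type cyclins, which bind and activate CDK4 or CDK6. These kinases phosphorylate RB1 and its relatives, E2F transcription factors are released from them, and E2F in turn raises the genes of the cyclin E-CDK2 step and of DNA replication. CDC25A removes the inhibitory phosphates that WEE1 places on CDK2, and the inhibitor CDKN1A (p21), a direct target of TRP53, binds the cyclin-CDK complexes. POLE4 is a small subunit of DNA polymerase epsilon, and the study asked how loss of TRP53 changes transcription in cells with and without POLE4.

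Levels are given as CPM, the counts of a gene scaled to the TMM-corrected total of its library, and differences as log2 fold changes from edgeR's quasi-likelihood test over all 18 libraries. The p-values were adjusted by the Benjamini-Hochberg method over the 15710 genes tested, and a gene with a value under 0.05 is said to be called. In bulk RNA, fewer cells in a phase and less RNA per cell cannot be told apart.

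Library totals lay between 9535957 and 35319880 counts, of which ribosomal RNA genes took 0.968% to 42.5%. The genotypes were checked through their own genes. Trp53 stood at 8.65 to 12.1 CPM in the 6 Trp53-/- libraries, at 48.4 to 59.6 CPM in the 6 Trp53+/- libraries and at 64.2 to 96.1 CPM in the 6 Trp53+/+ libraries. Pole4 stood at 9.26 to 12 CPM in the 9 Pole4-/- libraries and at 14.2 to 26.4 CPM in the 9 Pole4+/+ libraries, so its RNA was reduced and not absent. Summed fibroblast markers took 14196 to 32486 CPM in every library, the erythroid markers at most 1.86 CPM, the endothelial markers at most 8.88 CPM, the epithelial markers at most 42.2 CPM, the macrophage markers at most 51.1 CPM, the neuronal markers at most 147 CPM and the skeletal muscle markers at most 155 CPM. By Xist and Y-linked genes, all 3 Pole4+/+ Trp53+/- libraries were male, no Pole4+/+ Trp53+/+ or Pole4+/+ Trp53-/- library was, and the Pole4-/- groups held 2, 1 and 1 male libraries in Trp53+/+, Trp53+/- and Trp53-/- MEFs. The first Pole4+/+ Trp53-/- library stood apart from the other two of its group. The 10 proliferation markers summed to 1188 CPM in it, against 1848 and 2138 CPM. Its Y-linked genes summed to 7.20 CPM beside 857 CPM of Xist, where the other 10 female libraries held at most 0.302 CPM of Y-linked genes, and the part of this in its values was not tested.

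The stretches in front of the genes were read for short words, and the part of these words in the levels was not tested. RefSeq's table for GRCm38.p6 gave a start for 6 of the 9 genes. Of their promoters, 4 are printed as the 250 bases before the start, read 5′ to 3′ along the gene. Capitals mark the letters CACGTG, the E-box bound by MYC and related factors, in Cdk4 and Cdk6, and an E2F-type word in Cdk2 and Cdc25a.
Cdk4, chr10:127063285-127063534, plus strand: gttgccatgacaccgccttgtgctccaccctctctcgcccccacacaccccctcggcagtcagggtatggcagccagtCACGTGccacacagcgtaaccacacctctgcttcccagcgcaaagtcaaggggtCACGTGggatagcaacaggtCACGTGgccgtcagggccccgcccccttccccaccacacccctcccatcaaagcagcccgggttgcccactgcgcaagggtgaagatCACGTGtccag
Cdk6, chr5:3343643-3343892, plus strand: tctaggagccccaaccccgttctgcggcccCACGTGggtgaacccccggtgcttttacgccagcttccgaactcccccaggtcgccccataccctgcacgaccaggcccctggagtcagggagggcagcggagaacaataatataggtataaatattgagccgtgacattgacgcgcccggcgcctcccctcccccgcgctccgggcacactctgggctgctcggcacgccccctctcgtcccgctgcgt
Cdk2, chr10:128705052-128705301, minus strand: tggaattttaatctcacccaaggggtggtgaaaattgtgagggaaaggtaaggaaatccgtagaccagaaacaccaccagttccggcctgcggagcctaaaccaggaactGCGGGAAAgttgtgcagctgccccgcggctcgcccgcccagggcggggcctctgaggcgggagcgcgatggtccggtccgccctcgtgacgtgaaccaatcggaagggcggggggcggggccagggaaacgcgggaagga
Cdc25a, chr9:109875329-109875578, plus strand: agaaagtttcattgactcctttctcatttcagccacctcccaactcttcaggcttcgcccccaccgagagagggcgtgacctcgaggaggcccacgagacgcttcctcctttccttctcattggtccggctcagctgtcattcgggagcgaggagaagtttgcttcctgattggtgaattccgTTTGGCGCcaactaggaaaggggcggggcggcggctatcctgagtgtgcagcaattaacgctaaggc

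The words searched on both strands were the E2F types TTTCGCGC, TTTGGCGC, TTTCCCGC, TTTGGCGG and TTCCCGCC, the cell cycle homology types TTTGAA and TTCGAA, the E-box CACGTG, the GC box GGGCGG, the ETS core CGGAAG, and the CREB types TGACGTCA and TGACGTAA. Words may overlap one another. Cdc25a held TTTGGCGC 67 bases before its start, a word found in 0.417% of the 32851 promoter stretches of the table. Cdk2 held TTTCCCGC on the opposite strand, read as GCGGGAAA, 140 bases before its start, a word found in 0.895% of stretches. Any of the 5 E2F words was found in 3.3% of stretches. Cdk4 held CACGTG 4 times, at 172, 118, 98 and 11 bases before its start, and Cdk6 held it once, at 220 bases. This word occurs in 6.02% of stretches, and it reads the same on both strands. GGGCGG was found in front of Ccnd3, Cdk4, Ccne1, Cdk2 and Cdc25a and in 32.7% of all stretches. CGGAAG was found in front of Ccnd3, Cdk6 and Cdk2 and in 13.6%. The other words were not in the printed genes' stretches, nor in those of Ccnd3 and Ccne1. These matches describe the letters only, and RefSeq's starts can differ from the gene bounds of the count table's annotation.

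Across the 18 libraries, Ccnd2 was the most abundant of the 9 genes per length. Its mean was 103.4 CPM per kb of annotated exon, followed by Cdk4 at 63.7 and Ccnd1 at 49.8. Ccnd3 at 13.3, Ccne1 at 11.4, Ccne2 at 10.1 and Cdk6 at 8.89 CPM per kb lay far lower, and Cdk2 at 5.11 and Cdc25a at 4.78 CPM per kb were the lowest. The order of these means is not that of every genotype. In Pole4+/+ Trp53-/- MEFs Cdk4 (71.6) lay above Ccnd2 (68.0 CPM per kb). In Pole4-/- Trp53-/- MEFs Ccne2 (16.2) and Ccne1 (15.8) lay above Ccnd3 (12.8 CPM per kb), and in Pole4-/- Trp53+/+ MEFs Cdk6 (6.49) lay above Ccne2 (6.02 CPM per kb). It also rests on the annotated exon lengths, from 2662 bases for Ccne1 to 13989 for Cdk6.

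In the test of any difference among the 6 genotypes, 7 of the 9 genes were called, against 28.5% of all genes tested. Ccnd1 (adjusted p = 0.798) and Ccne1 (adjusted p = 0.0993) were not. With 1 library left out, 5 to 8 of the 9 genes were called in this test, and 18.8% to 43.7% of all genes. For 6 genes (Cdk4, Cdk6, Ccne1, Ccne2, Cdk2 and Cdc25a) the lowest of the 6 group means was that of Pole4-/- Trp53+/+ MEFs. For Ccnd2 and Ccnd3 it was the highest. Ccnd2 ran from 1378 ± 131 CPM (SD, n = 3) there through 1127 ± 154 in Pole4-/- Trp53+/- and 1098 ± 22.7 in Pole4+/+ Trp53+/+ libraries to a mean of 908 ± 63.9 CPM with Pole4+/+ Trp53+/-, and then to 687 ± 111 and 639 ± 83.5 CPM in the Pole4-/- and Pole4+/+ Trp53-/- groups. The libraries of neighbouring groups overlapped among the highest 3 and between the lowest 2, and those of Pole4+/+ Trp53+/- MEFs overlapped with neither neighbour. For Cdk4, Cdk6 and Cdk2 the libraries of neighbouring groups overlapped throughout, except that Pole4-/- Trp53+/+ MEFs stood below the next group in order. How many of all genes had an extreme mean in Pole4-/- Trp53+/+ MEFs, or stood apart there, was not counted. The first principal component of log2 CPM over all genes tested held 31.0% of the variance. On it the Pole4-/- Trp53+/+ libraries lay at -60.7, -59.7 and -62.0, and every other library at -30.4 or above. Between the highest and the lowest group mean, Ccne2 differed 2.69-fold, Ccnd2 2.15-fold, Cdc25a 1.95-fold, Cdk2 1.87-fold, Ccne1 1.84-fold, Cdk6 1.77-fold and Cdk4 1.41-fold, and Ccnd1 and Ccnd3 1.19-fold each.

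**Figure D1:**
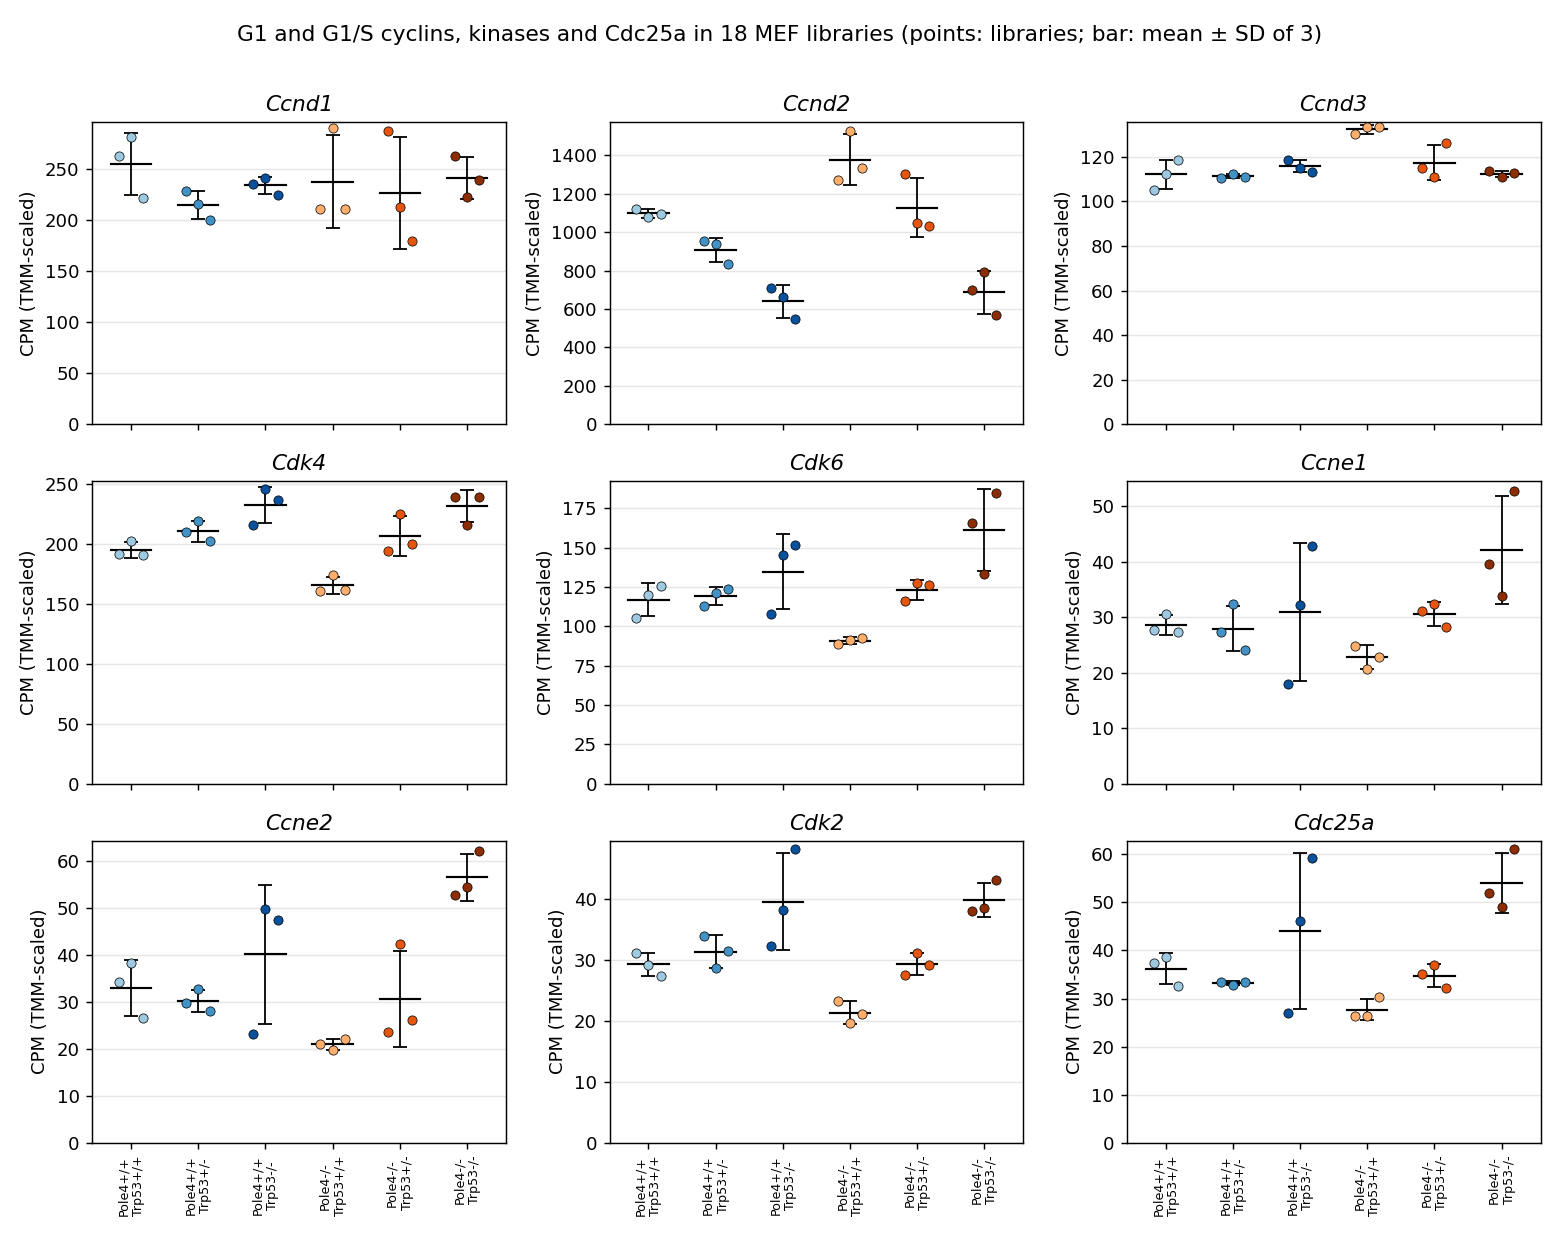
TMM-scaled CPM (y axes, from 0) of each of the 9 genes in the 6 genotypes (x axes). Points are libraries and bars the mean ± SD of 3. Ccnd2 is lowest in both Trp53-/- groups, Ccnd3 is highest in Pole4-/- Trp53+/+ MEFs at 130.2 to 134 CPM, and Cdk4, Cdk6 and Cdk2 are lowest there.

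The largest set of changes was seen when Trp53-/- was compared with Trp53+/+ in Pole4-/- MEFs, which asks what loss of TRP53 does in cells that lack POLE4. Both D-type cyclins that changed fell, and the kinases, the E-type cyclins and Cdc25a rose. In all, 6 of the 9 genes rose, where 21.8% of all genes did, and 2 fell, where 20.8% did. Together 42.6% of all genes were called. The median log2 fold change of the 9 genes was 0.83, and that of all genes tested was -0.02.

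Ccnd2, the D-type cyclin with the highest level in these cells, stood at 1273, 1525 and 1335 CPM in Pole4-/- Trp53+/+ and at 697, 793 and 571 CPM in Pole4-/- Trp53-/- libraries. The groups did not overlap, and every Trp53-/- library lay far below. The log2 fold change was -1.003 (SE 0.14, edgeR adjusted p = 5.31e-05). Ccnd3 stood at 130.2, 134 and 133 CPM in Pole4-/- Trp53+/+ and at 114, 111 and 113 CPM in Pole4-/- Trp53-/- libraries. The fall was small but larger than the spread, at -0.23 on the log2 scale (SE 0.07, adjusted p = 0.00898). With library totals as the scale (-0.26, adjusted p = 0.326) or without the filter on low counts (-0.19, adjusted p = 0.153) it was not called. Ccnd1, a D-type cyclin induced by growth factor signalling, stood at 211, 289.9 and 211 CPM in Pole4-/- Trp53+/+ libraries. In Pole4-/- Trp53-/- libraries it stood at 262, 222 and 239 CPM. The groups overlapped, with a log2 fold change of 0.02 and a 95% interval from -0.31 to 0.35.

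The partner kinases of the D-type cyclins moved the other way from Ccnd2. Cdk4 stood at 161, 174 and 161 CPM in Pole4-/- Trp53+/+ and at 239, 216 and 239 CPM in Pole4-/- Trp53-/- libraries. It rose by 0.49 on the log2 scale (SE 0.08, adjusted p = 0.00025). With library totals as the scale it was not called (0.46, adjusted p = 0.0549). Cdk6, which can stand in for Cdk4 in many cell types, stood at 88.7, 91.1 and 92.8 CPM and at 165, 133 and 185 CPM in the same order. The rise of Cdk6 was 0.83 (SE 0.13, adjusted p = 0.000154). Neither kinase overlapped between the groups. For Cdk6 the Pole4-/- Trp53-/- libraries spread far wider (SD 26.1 CPM) than the Pole4-/- Trp53+/+ libraries (SD 2.05 CPM).

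At the next step, the change was strongest for Ccne2. This E-type cyclin, which activates CDK2 at the start of S phase, stood at 21.1, 19.9 and 22.2 CPM in Pole4-/- Trp53+/+ and at 52.9, 54.6 and 62.3 CPM in Pole4-/- Trp53-/- libraries. Its log2 fold change of 1.43 (SE 0.26, adjusted p = 0.00052) was the largest of the 9. Ccne1, the other E-type cyclin, stood at 24.9, 20.6 and 22.9 CPM and at 39.6, 33.8 and 52.7 CPM. It rose by 0.88 (SE 0.23, adjusted p = 0.00709). Ccne1 was not called in the test across the 6 genotypes nor in the other 5 pairs of groups tested here. In fits of only the 6 libraries compared it was also called for Trp53+/- in Pole4-/- MEFs (adjusted p = 0.0244) and for Pole4 loss in Trp53+/+ MEFs (adjusted p = 0.0461).

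Cdk2, the kinase of both E-type cyclins, stood at 23.3, 19.6 and 21.1 CPM in Pole4-/- Trp53+/+ and at 38.0, 38.5 and 43.0 CPM in Pole4-/- Trp53-/- libraries. The rise was 0.90 on the log2 scale (SE 0.13, adjusted p = 7.64e-05). Cdc25a, whose product removes the inhibitory phosphates from CDK2, stood at 26.4, 26.5 and 30.2 CPM and at 52.0, 49.0 and 61.1 CPM. It rose by 0.97 (SE 0.19, adjusted p = 0.00111). The groups did not overlap for the 8 called genes, whichever the sex of the library. Of them 6 lay wholly above, where 28.5% of all genes did, and 2 wholly below, where 28.5% did. Leaving out any 1 library of these groups kept 8 genes called, with 32.8% to 38.3% of all genes called. Proliferation markers moved with these genes: their summed level was 642.5 to 665 CPM in Pole4-/- Trp53+/+ and 1886 to 2287 CPM in Pole4-/- Trp53-/- libraries. All 10 rose, with Mcm5, a subunit of the replicative helicase (1.97), and Birc5, which encodes survivin (1.80), the furthest. Their part in the changes was not tested. The sum of the 8 skeletal muscle markers moved in the direction of Ccnd2, with 78.3, 90.1 and 104 CPM over the Pole4-/- Trp53+/+ libraries in rising order and at most 50.1 CPM in the Pole4-/- Trp53-/- libraries. Nearly all of it was Acta1, skeletal actin, which was called lower (-1.25). Myod1 and Myog, the factors that define muscle precursors, stood at no more than 1.45 CPM in any library, and Ckm at 0 in most. Their part in the fall of Ccnd2 was not tested. Summed fibroblast markers were lower too, at 14196 to 16964 CPM against 25335 to 32486 CPM. Epithelial markers, at 22.3 to 42.2 CPM against 10.5 to 16.7 CPM, and neuronal markers, at 125.5 to 147 CPM against 77.5 to 97.2 CPM, were higher with the kinases and E-type cyclins. The part of these 3 lists was not tested.

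**Figure D2:**
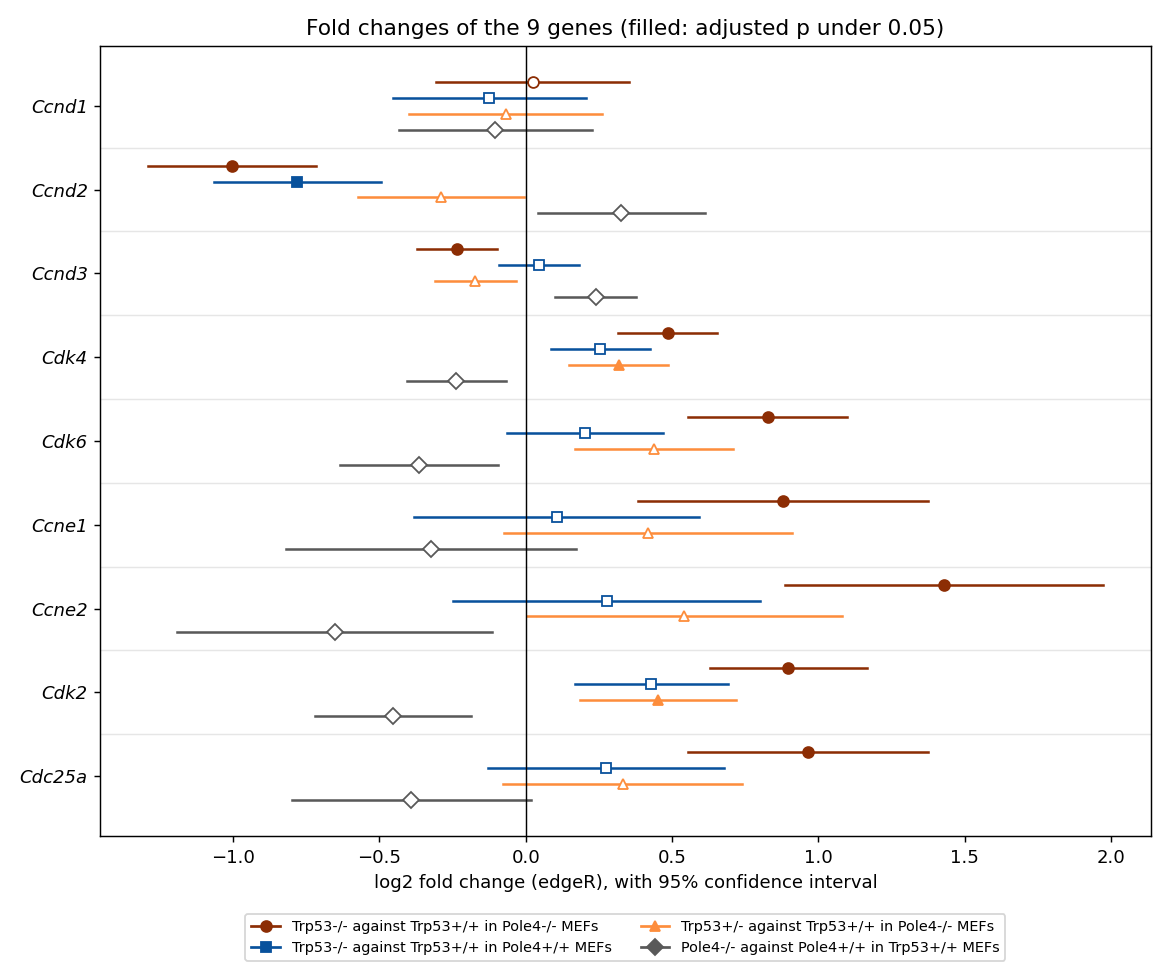
Log2 fold changes (x axis) of the 9 genes (y axis) in 4 comparisons, with 95% confidence intervals as lines and filled symbols where the adjusted p is under 0.05. Ccnd2 is filled and below 0 in both Trp53-/- comparisons, and Cdk4 and Cdk2 are filled for Trp53+/- against Trp53+/+ in Pole4-/- MEFs.

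In Pole4+/+ MEFs loss of Trp53 called 4.6% of all genes tested, and 2.37% were called lower. Ccnd2 was the 1 gene of the 9 that was called. It stood at 1123, 1079 and 1092 CPM in Pole4+/+ Trp53+/+ and at 710.1, 661 and 547 CPM in Pole4+/+ Trp53-/- libraries. The log2 fold change was -0.78 (SE 0.13, edgeR adjusted p = 0.00331), and its Trp53-/- libraries lay wholly below, where 8.31% of all genes did. The call was lost with library totals as the scale (-0.69, adjusted p = 0.105) and in a fit of only these 6 libraries (-0.78, adjusted p = 0.0933). Skeletal muscle markers summed to 75.7 to 83.8 CPM in Pole4+/+ Trp53+/+ and to 24.7 to 36.2 CPM in Pole4+/+ Trp53-/- libraries. Acta1 was again the 1 muscle marker called (-1.66). Neuronal markers summed to 101.2 to 139 CPM with Trp53-/- against 67.9 to 87.2 CPM in the controls, and the part of both lists was not tested. Ccnd1, at 262, 281 and 221 CPM against 236, 241 and 224 CPM, and Ccnd3, at 105, 112 and 119 CPM against 119, 115 and 113 CPM, overlapped between these groups.

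Cdk4 and Cdk2 lay above the controls in all 3 Pole4+/+ Trp53-/- libraries, as 8.24% of all genes did, without passing the threshold. Cdk4 stood at 191, 203 and 191 CPM in Pole4+/+ Trp53+/+ and at 216, 245 and 236 CPM in Pole4+/+ Trp53-/- libraries, a log2 difference of 0.26 (adjusted p = 0.0782). Cdk2 stood at 31.1, 29.2 and 27.4 CPM and at 32.3, 38.2 and 48.1 CPM, a difference of 0.43 (adjusted p = 0.0598). Cdk6, Ccne1, Ccne2 and Cdc25a overlapped between the groups, with the 3 Pole4+/+ Trp53-/- libraries far apart. The first of them held 17.9 CPM of Ccne1, 23.2 of Ccne2 and 26.9 of Cdc25a, below every Pole4+/+ Trp53+/+ library. The other two held 32.2 and 42.8 CPM of Ccne1, 49.8 and 47.6 of Ccne2, and 46.1 and 59.2 of Cdc25a, above every Pole4+/+ Trp53+/+ library. Pole4+/+ Trp53+/+ libraries held 27.8, 30.6 and 27.4 CPM of Ccne1, 34.3, 38.3 and 26.6 of Ccne2, and 37.5, 38.7 and 32.5 of Cdc25a. Cdk6 in the first Pole4+/+ Trp53-/- library, at 107 CPM, was within the control range of 105 to 126 CPM, and in the other two it was 145 and 151 CPM. The first library is also the one with the low sum of proliferation markers. Without it, 4 of the 9 genes were called (Ccnd2, lower, and Cdk4, Cdk2 and Cdc25a, higher), and the share of all genes called rose from 4.6% to 17.3%.

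An interaction term tested whether the effect of Trp53 loss depended on Pole4, and it called 0.331% of all genes and none of the 9 with edgeR. Of the 9, 6 had an unadjusted p under 0.05, where 28.3% of all genes did, and DESeq2 called 3, where it called 13.2% of all genes. The values nearest the threshold were those of Cdk6 (difference of log2 fold changes 0.62, 95% interval 0.24 to 1.00, adjusted p = 0.0654), Ccne2 (1.15, interval 0.40 to 1.90, adjusted p = 0.0744) and Ccnd3 (-0.28, interval -0.48 to -0.09, adjusted p = 0.0823). For Ccnd2, which was called in both backgrounds, the difference was -0.22 with an interval from -0.63 to 0.18. The count rests on single libraries: without the third Pole4+/+ Trp53-/- library 6 genes were called (Ccnd3, Cdk6, Ccne1, Ccne2, Cdk2 and Cdc25a), and without the second of that group 2 were (Cdk6 and Ccne2). The share of all genes called moved with them, to 20.9% and 12.7%.

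Loss of 1 copy of Trp53 was read in Pole4-/- MEFs against the same Pole4-/- Trp53+/+ libraries as loss of both copies. Of all genes, 5.12% were called and 2.96% were called higher. Of the 9, Cdk4 and Cdk2 were called, and both were higher. Cdk4 stood at 194, 225 and 199 CPM in Pole4-/- Trp53+/- libraries, all above the 161 to 174 CPM of the controls, with a log2 fold change of 0.32 (SE 0.08, edgeR adjusted p = 0.0367). Cdk2 stood at 27.5, 31.1 and 29.2 CPM, a rise of 0.45 (SE 0.13, adjusted p = 0.0492). Cdk2 was not called with a block for the replicate number (adjusted p = 0.0512) or with the ribosomal RNA share as a covariate (adjusted p = 0.0548). Cdk6, at 116, 127 and 126 CPM, had a difference of 0.44 (adjusted p = 0.0551), and was called by DESeq2 (adjusted p = 0.0186), where 13.7% of all genes were. In all, 6 of the 9 genes had Pole4-/- Trp53+/- libraries wholly above the Pole4-/- Trp53+/+ libraries, where 21.4% of all genes did. These 6 were Cdk4, Cdk6, Ccne1, Ccne2, Cdk2 and Cdc25a. Among them Ccne1 stood at 31.1, 32.4 and 28.1 CPM (difference 0.42, adjusted p = 0.265), Ccne2 at 23.6, 42.3 and 26.1 CPM (0.54, adjusted p = 0.19) and Cdc25a at 35.2, 37.0 and 32.2 CPM (0.33, adjusted p = 0.286). Ccnd3, at 115, 111 and 126 CPM, lay wholly below, and Ccnd2, at 1305, 1045 and 1032 CPM, overlapped. Without any 1 of the 3 Pole4-/- Trp53+/+ libraries, or without the second Pole4-/- Trp53+/- library, 0 of the 9 genes were called. Without the first or the third Pole4-/- Trp53+/- library only Cdk4 of the 9 was, and with log2 Xist as a covariate 0 were (0.29 and adjusted p = 0.106 for Cdk4, 0.41 and adjusted p = 0.126 for Cdk2). Whichever library was left out, the log2 fold change was 0.25 to 0.36 for Cdk4 and 0.39 to 0.53 for Cdk2. Over all genes the 805 calls became 17 without the second Pole4-/- Trp53+/- library and 260, 44 and 33 without the first, the second and the third Pole4-/- Trp53+/+ library. Without the first or the third Pole4-/- Trp53+/- library they became 467 and 560. The sum of proliferation markers in these Pole4-/- Trp53+/- libraries was 916 to 1253 CPM, also between the other two groups. Epithelial markers summed to 23.2 to 31.7 CPM against 10.5 to 16.7 CPM in the controls, and the part of both lists in the result was not tested. Skeletal muscle markers overlapped, with sums of 77.6 to 155 CPM against 78.3 to 104 CPM in the controls.

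In Pole4+/+ MEFs, Trp53+/- against Trp53+/+ called 0.904% of all genes and none of the 9 with edgeR. None had an unadjusted p under 0.05, where 10.2% of all genes did, and DESeq2 called 0, where it called 2.62% of all genes. Ccnd2 was lower in all 3 Pole4+/+ Trp53+/- libraries, as 10.1% of all genes were, at 953, 936 and 835 CPM, with a log2 difference of -0.27 (95% interval -0.56 to 0.01, adjusted p = 0.516). The 8 other genes overlapped between the groups. Cdk4, at 210.2, 219 and 202 CPM, had a difference of 0.11 (interval -0.06 to 0.28) and Cdc25a, at 33.5, 32.9 and 33.3 CPM, one of -0.12 (interval -0.53 to 0.28). The skeletal muscle sum was lower than with Trp53+/+ in both Trp53-/- comparisons, but not with Trp53+/- in Pole4-/- MEFs. In these Pole4+/+ Trp53+/- libraries it was lower, at 36.5 to 53.9 CPM against 75.7 to 83.8 CPM. Epithelial markers were lower as well, at 12 to 17.4 CPM against 20.8 to 34.4 CPM, and neuronal markers higher, at 96.9 to 125.3 CPM against 67.9 to 87.2 CPM, and the part of these lists was not tested. All 3 heterozygous libraries were male and all 3 controls female, so sex and genotype cannot be told apart here.

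Loss of Pole4 alone was read in Trp53+/+ MEFs. The comparison called 3.98% of all genes and none of the 9 with edgeR, although 6 of the 9 had an unadjusted p under 0.05, where 26.1% of all genes did, and DESeq2 called 3 (Ccnd3, Cdk4 and Cdk2), where it called 12.5% of all genes. The libraries of the groups did not overlap for 8 of the 9 genes. Ccnd2 and Ccnd3 lay wholly above in Pole4-/- MEFs, where 19.4% of all genes did, and Cdk4, Cdk6, Ccne1, Ccne2, Cdk2 and Cdc25a lay wholly below, where 21.7% did. The nearest to the threshold were Ccnd3, 105 to 119 CPM in Pole4+/+ and 130.2 to 134 CPM in Pole4-/- MEFs, with a log2 difference of 0.24 (SE 0.07, adjusted p = 0.0512), and Cdk2, 27.4 to 31.1 CPM and 19.6 to 23.3 CPM, with a difference of -0.45 (SE 0.13, adjusted p = 0.0541). Ccne2 had the largest difference, -0.65 (95% interval -1.19 to -0.11, adjusted p = 0.126). Ccnd2 differed by 0.33 (interval 0.04 to 0.61, adjusted p = 0.141) and Cdk6 by -0.36 (interval -0.63 to -0.09, adjusted p = 0.0977). In a fit of only these 6 libraries, 8 of the 9 genes were called, all but Ccnd1, where 21% of all genes were. Without the third Pole4+/+ Trp53+/+ library Ccnd3 was called, where 4.07% of all genes were. Without any other 1 of the 6 libraries 0.0509% to 0.815% of all genes were called and none of the 9. The controls were all female and 2 of the 3 Pole4-/- libraries male. With log2 Xist as a covariate 0 of the 9 genes were called, and 0.0191% of all genes were. With library totals as the scale, which moved the median of all genes by -0.29, the log2 difference of Ccnd3 was -0.07. The sum of proliferation markers was 948 to 1281 CPM in Pole4+/+ Trp53+/+ against 642.5 to 665 CPM in Pole4-/- Trp53+/+ libraries. Epithelial markers were also lower in the Pole4-/- libraries, at 10.5 to 16.7 CPM against 20.8 to 34.4 CPM, and fibroblast markers higher, at 25335 to 32486 CPM against 16654 to 22930.5 CPM. The part of these lists in the values was not tested.

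In Trp53-/- MEFs the same contrast called 0.00637% of all genes, a single gene, and none of the 9 with edgeR, with DESeq2 or at an unadjusted p under 0.05. Of all genes, DESeq2 called 0.185%, and 10.4% had an unadjusted p under 0.05. Ccne2 had the largest log2 difference, 0.50 (95% interval -0.03 to 1.02, adjusted p = 0.497), and was the 1 gene of the 9 whose Pole4-/- libraries lay wholly above, where 4.32% of all genes did. Leaving out the first of the Pole4+/+ libraries made it 0.22, and leaving out the second 0.69. Ribosomal RNA took 24.7% to 30.0% of the Pole4-/- Trp53-/- and 1.82% to 13.1% of the Pole4+/+ Trp53-/- libraries, and with its share as a covariate the difference was 0.19 (adjusted p = 0.964). The narrowest intervals were those of Ccnd3, from -0.18 to 0.10, and Cdk4, from -0.18 to 0.16. The Pole4-/- Trp53-/- and Pole4+/+ Trp53-/- libraries used here also serve the Trp53 comparisons above.

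The make-up of the families was compared per length, since the members differ in exon length. On the scale of CPM per kb, Ccnd2 was 63.8%, 61.3% and 65.7% of the 3 D-type cyclins in Pole4+/+ Trp53+/+ libraries and 54.3%, 52.2% and 49.0% in Pole4+/+ Trp53-/- libraries. In Pole4-/- Trp53+/+ libraries it was 69.4%, 67.9% and 70.3%, and in Pole4-/- Trp53-/- libraries 51.9%, 58.5% and 48.9%. In both backgrounds the shares of the Trp53-/- and Trp53+/+ libraries did not overlap. Over the Trp53+/- groups the share was 61.7% to 63.0% (Pole4+/+) and 65.2% to 67.6% (Pole4-/-). The summed level of the D-type cyclins relative to that of Cdk4 and Cdk6 was 3.69 ± 0.26 (SD, n = 3) with Trp53+/+, 2.53 ± 0.52 with Trp53+/- and 1.67 ± 0.23 with Trp53-/- in Pole4-/- MEFs. In Pole4+/+ MEFs it was 2.69 ± 0.11, 2.11 ± 0.11 and 1.62 ± 0.23 in the same order. These ratios are given as values, with no test. The smallest Pole4-/- Trp53+/+ ratio was 3.49 and the largest of the other 15 libraries 3.13. Being ratios of counts within a library, they do not depend on the scaling.

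Cdk4 made up 84.8% to 89.6% of the summed Cdk4 and Cdk6 level over all 18 libraries. Ccne2 relative to Ccne1 was 0.71 ± 0.05 with Trp53+/+ and 1.05 ± 0.17 with Trp53-/- in Pole4-/- MEFs, and 0.88 ± 0.12 and 1.00 ± 0.17 in the Pole4+/+ counterparts. The E-type cyclins together stood at 14.6 ± 1.02 CPM per kb with Trp53+/+ and at 32.0 ± 4.96 with Trp53-/- in Pole4-/- MEFs, and at 20.2 ± 2.27 and 23.1 ± 8.62 CPM per kb in Pole4+/+ MEFs, where the libraries overlapped. The D-type cyclins together stood at 211.9 ± 23.6 and 137 ± 11.1 CPM per kb in the same Pole4-/- groups, and at 183.6 ± 6.04 and 131 ± 10.7 in the Pole4+/+ groups.

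**Figure D3:**
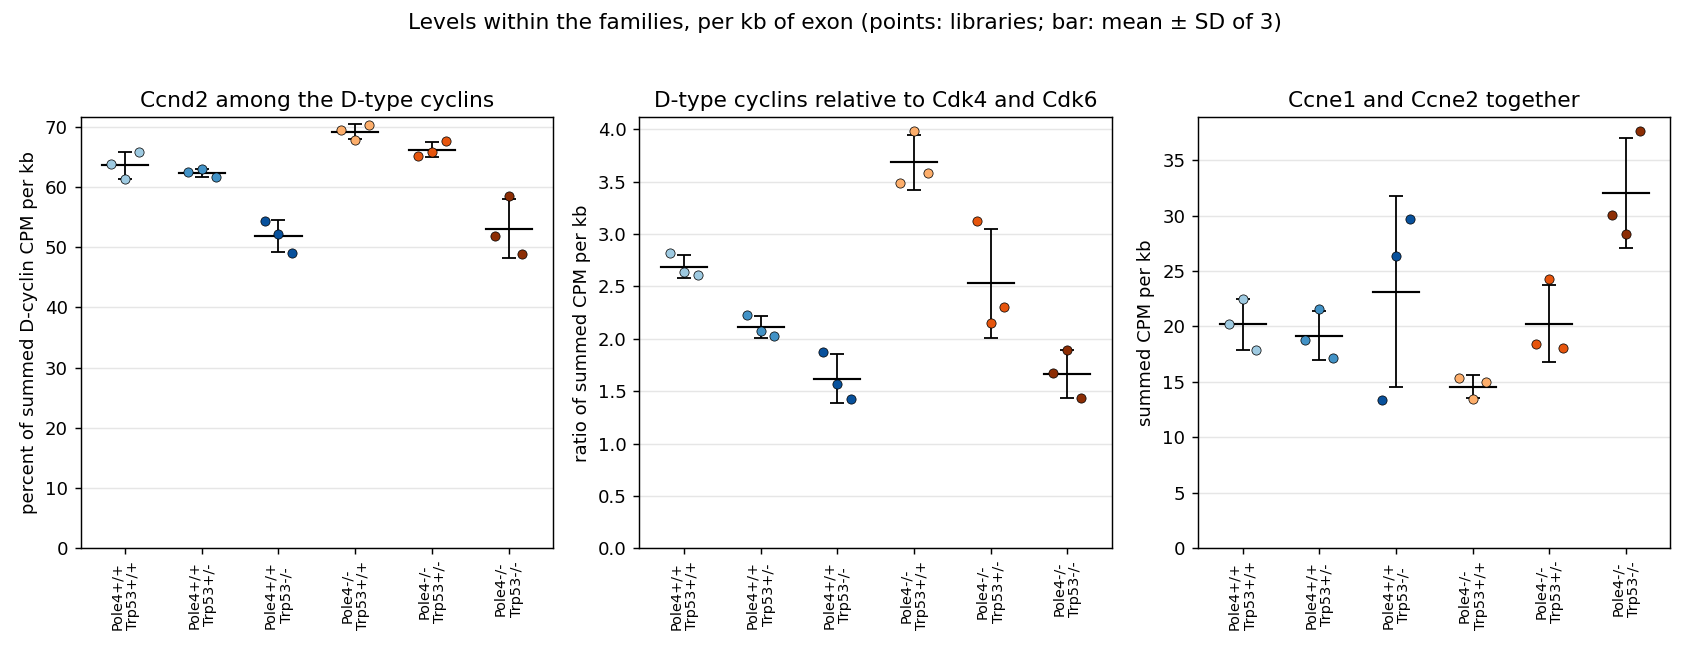
Share of Ccnd2 among the D-type cyclins in percent (left), ratio of the summed D-type cyclins to summed Cdk4 and Cdk6 (middle) and summed Ccne1 and Ccne2 in CPM per kb (right), by genotype. Points are libraries and bars the mean ± SD of 3. The left and middle panels are lowest in the Trp53-/- groups, and the ratio is highest, 3.49 to 3.98, in Pole4-/- Trp53+/+ MEFs.

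Among the genes that act on these cyclins and kinases, the CDK inhibitors came first. Cdkn1a, which encodes p21, stood at 342 to 363 CPM in Pole4-/- Trp53+/+ and 5.17 to 8.80 CPM in Pole4-/- Trp53-/- libraries. It fell by 5.72 on the log2 scale there (SE 0.26, adjusted p = 1.47e-09) and by 4.59 in Pole4+/+ MEFs (SE 0.24, adjusted p = 1.06e-08). Of the other 6 inhibitors, Cdkn2d (p19, an INK4 inhibitor of CDK4 and CDK6) rose in both backgrounds, by 0.50 in Pole4-/- and 0.53 in Pole4+/+ MEFs. Cdkn2c (p18) rose by 0.73 and Cdkn2b (p15) fell by 0.67 in Pole4-/- MEFs, and in Pole4+/+ MEFs neither was called (0.31 and 0.19). The call of Cdkn2b was lost with library totals as the scale and without the filter on low counts. It was also lost without the second or the third library of the Pole4-/- Trp53+/+ or the Pole4-/- Trp53-/- group. Cdkn1b (p27), Cdkn1c (p57) and Cdkn2a, which encodes p16 and p19ARF, were not called in either background. Cdkn2a ran from 21.3 to 140.3 CPM within the Pole4+/+ Trp53-/- group.

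The pocket proteins are the main substrates of the G1 kinases, and in Pole4-/- MEFs Rb1 and Rbl2 fell with loss of Trp53 and Rbl1 rose. Rb1 stood at 33.4 to 37.1 CPM in Pole4-/- Trp53+/+, 20.6 to 22.1 in Pole4-/- Trp53+/- and 12.7 to 13.4 CPM in Pole4-/- Trp53-/- libraries. It fell by 1.45 with loss of both copies of Trp53 (SE 0.13, adjusted p = 2.01e-06) and by 0.73 with loss of 1 (adjusted p = 0.00902). The call with loss of 1 copy was lost with library totals as the scale (-0.42, adjusted p = 0.189) and without the second Pole4-/- Trp53+/- library (-0.71, adjusted p = 0.0735) or the second (-0.70, adjusted p = 0.054) or the third (-0.73, adjusted p = 0.0535) Pole4-/- Trp53+/+ library. In Pole4+/+ MEFs it fell by 0.86 with loss of both (adjusted p = 0.000971), from 21.6 to 24.7 down to 9.62 to 15.5 CPM. It was not called there with library totals (-0.76, adjusted p = 0.0948) or in a fit of only these 6 libraries (-0.87, adjusted p = 0.156). Rbl1 (p107), itself an E2F target, rose by 0.98 and Rbl2 (p130), the pocket protein of resting cells, fell by 0.65 in Pole4-/- MEFs, and neither was called in Pole4+/+ MEFs (0.31 and 0.03).

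Further along the pathway, the counts of each list stand beside the 42.6% of all genes called in Pole4-/- MEFs and the 4.6% called in Pole4+/+ MEFs. Of the 10 E2F and DP genes, 7 rose and 0 fell in Pole4-/- MEFs with loss of Trp53, the furthest being the atypical repressors E2f7 (2.02) and E2f8 (1.43), against 0 called in Pole4+/+ MEFs. E2f1 was not called in either (0.23 and 0.33). Of the 8 genes that set CDK phosphorylation, 5 rose, among them Cdc25c (1.64) and the inhibitory kinase Pkmyt1 (1.60). The CDK-activating kinase genes Cdk7 (-0.12), Ccnh (0.17) and Mnat1 (0.00) were not called. Only Cdc25b (0.75) of that list was called in Pole4+/+ MEFs. Of the 8 turnover genes, 3 rose, 1 fell and 4 were not called in Pole4-/- MEFs, a share near that of all genes. Skp2 (1.27) and its cofactor gene Cks1b, which together mark p27 for destruction, rose the most. In Pole4+/+ MEFs Skp2 rose by 0.52 and Fbxw7, whose product targets cyclin E, fell by 0.35. Of the 5 tested genes of the later cyclins with Cdk1 and Cdc20, 5 rose in Pole4-/- MEFs, led by Ccna2 (1.89) and Ccnb1 (1.79), and 2 rose in Pole4+/+ MEFs, Ccna2 (0.76) and Ccnb2 (0.74). Among the proliferation markers, the kinase gene Aurkb (0.63) and the topoisomerase gene Top2a (0.58) were the 2 called in Pole4+/+ MEFs. The median log2 fold change in Pole4-/- MEFs was 0.45 over the inhibitors, -0.65 over the pocket proteins, 0.53 over the E2F and DP genes, 1.23 over the phosphorylation genes, 0.03 over the turnover genes and 1.64 over the later genes, beside -0.02 over all genes. Of the 38 genes of these lists and the proliferation markers that were called in Pole4-/- MEFs, 30 were called under each of the 13 alternatives, and Cdkn2b, Cdkn2c, Cdkn2d, E2f2, E2f3, E2f4, E2f5 and Btrc were not called with library totals as the scale. Cdkn2b was called under 7 of the 13 and E2f3 under 6, with calls also lost when single libraries were left out. In Pole4+/+ MEFs 10 were called, of which only Cdkn1a was called under all 13. The other 9 were not called in a fit of only the libraries compared, and Skp2, Fbxw7, Ccna2 and Aurkb were called under 2 to 4 of the 13. No direction of these calls turned under the alternatives.

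**Figure D4:**
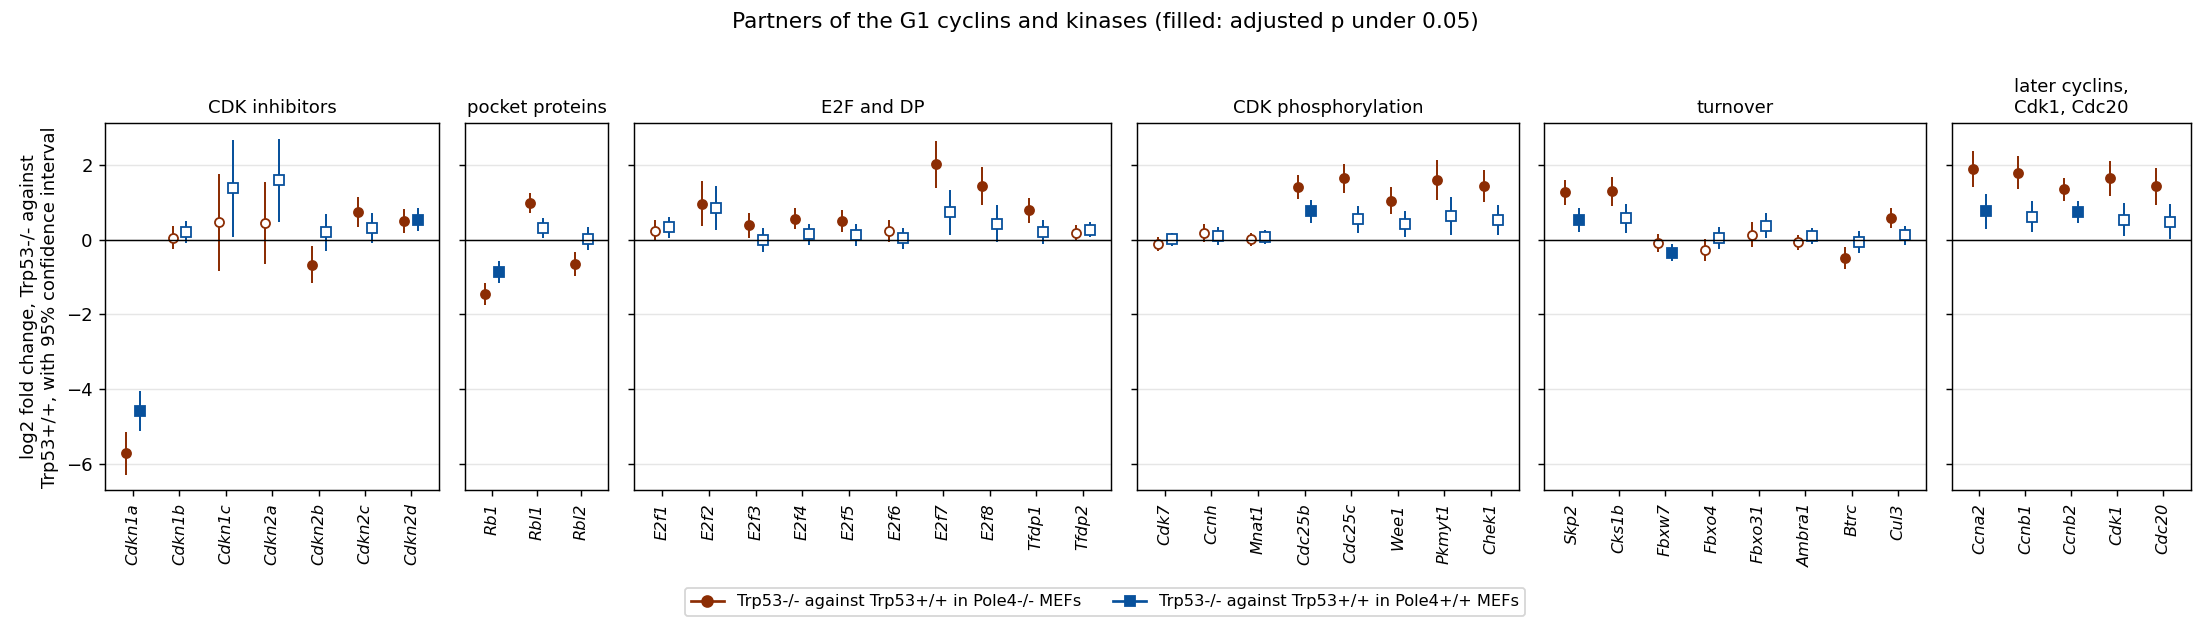
Log2 fold changes (y axis) of Trp53-/- against Trp53+/+ for genes that act with the G1 cyclins and kinases (x axes), in Pole4-/- (circles) and Pole4+/+ (squares) MEFs. Lines are 95% confidence intervals and filled symbols have an adjusted p under 0.05. Cdkn1a and Rb1 are filled below 0 in both, and E2f7, Cdc25c and Ccna2 are among the highest circles.

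For each of the 7 genes called across the genotypes, the 3 tested genes with the most similar profile were taken by the root-mean-square difference of centred log2 CPM over the 18 libraries. For Ccnd2 these were Ptpn14 (0.11), Fam214b (0.12) and Tmbim4 (0.13), beside a standard deviation of Ccnd2 itself of 0.43. Cdk4 was nearest to Wdr82, Josd1 and Atp5o (0.06 each, SD of Cdk4 0.18) and Cdk6 to Msh6, Smarcc1 and Fastkd2 (0.09 to 0.11, SD 0.28). The nearest to Ccne2 were Nop58, Rbmx2 and Rpp30 (0.13 each, SD 0.52) and to Cdk2 Usp37, Ints7 and Reep4 (0.08 to 0.10, SD 0.34). Cdc25a was followed most closely by Nup153 (0.06), Ftsj3 (0.08) and Ahctf1 (0.09), with an SD of 0.38. For Ccnd3, Smarcc2 (0.06), Sdf4 (0.07) and Usp8 (0.07) were nearest, but its own SD was only 0.10. None of the 9 genes was among the 3 nearest of these 7.

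Some counts may hold reads of a neighbour. Exons overlap with a gene on the opposite strand at Ccnd1 (LTO1, 1100 bases), Cdk4 (Tspan31, 641 bases), Ccne2 (Ints8, 609 bases) and Ccnd3 (Bysl, 361 bases), at Ccnd2 (372 and 368 bases), Cdk6 (368 bases) and Cdk2 (34 bases), and whether the counting used strand is not given in the sources used here. The highest count in a library was 2393 for Ints8 against 1284 for Ccne2, and 2616 for Tspan31 against 7931 for Cdk4. It was 1282 for Bysl against 4490 for Ccnd3, and 416 for LTO1 against 11183 for Ccnd1. For Ccnd3, 38.9% of the 18 values were not whole, as reads shared among genes give, and for the other 8 genes all were whole numbers. In GRCm38, Ccnd2 (ENSMUSG00000000184) lies on chromosome 6 from 127125162 to 127152193, Ccne2 (ENSMUSG00000028212) on chromosome 4 from 11191351 to 11204779, Cdk2 (ENSMUSG00000025358) on chromosome 10 from 128697939 to 128705031 and Cdc25a (ENSMUSG00000032477) on chromosome 9 from 109875579 to 109893895.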

How the data were processed

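RNA of passage 1 MEFs had been sequenced in 18 libraries, 3 for each of 6 genotypes. The deposited values are expected counts per Ensembl gene, which the authors made with STAR 2.5.2 and RSEM 1.3.0 on GRCm38, per the submitters' processing notes. RSEM shares reads that fit several genes, so 6.14% of the values were not whole. The strand setting of the counting is not given in the sources used here. Counts were rounded to whole numbers. Of 51912 gene ids, 51719 matched the annotation, from which symbols and union exon lengths came.

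Genes were filtered with filterByExpr (minimum count 10), scaled by TMM and tested with edgeR 4.0.16 (R 4.3.3, limma 3.58.1) by the quasi-likelihood F-test in 1 fit of all 18 libraries with 1 mean per genotype and 12 residual degrees of freedom. P-values were adjusted by Benjamini-Hochberg. The prior count was 2, and intervals are at 95%. Alternatives were DESeq2 1.42.0, library totals without TMM, no filter, a fit restricted to the compared libraries, a block for the replicate number, log2 Xist as a covariate, and each library left out in turn. The ribosomal RNA share as a covariate was chosen after seeing the data. The scripts were tested on simulated data. The members and lists were chosen with earlier results of these data known, and how the calls of list genes fare under the alternatives was counted after seeing the data. The text names the 9 genes in every comparison, the targeted genes and Cdkn1a, the genes of the fixed pathway lists, and the 3 genes nearest to each member called across the genotypes.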

Additional observations from a re-analysis of the deposited data

How the results depend on the processing

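The 8 calls for Trp53-/- against Trp53+/+ in Pole4-/- MEFs stayed within 1.5 times under each alternative, the fewest being 6 with library totals (23.7% of all genes, from 42.6%), with 8 of the 9 genes whichever library was left out (32.8% to 38.3%). In Pole4+/+ MEFs the 1 call (4.6% of all genes called) became 3 with DESeq2 (8.87%), 0 with library totals (1.22%), 0 with only the libraries compared (0.598%), 2 with the ribosomal RNA share as a covariate (4.42%) and 1 to 4 with a library left out. For Trp53+/- in Pole4-/- MEFs the 2 calls (5.12% of all genes) became 4 with library totals (13.8%), 5 with only the libraries compared (16.8%), 0 with Xist as a covariate (0.643%) and 0 to 1 with a library left out. For Pole4 loss in Trp53+/+ MEFs the 0 calls (3.98% of all genes) became 3 with DESeq2 (12.5%), 5 with library totals (14.3%), 2 without the filter (2.78%), 8 with only the libraries compared (21%), 4 with the ribosomal RNA share (12.2%) and 0 to 1 with a library left out. For the interaction the 0 calls (0.331% of all genes) became 3 with DESeq2 (13.2%), 1 without the filter (1.14%) and 0 to 6 with a library left out. The replicate numbers were not shown to pair the libraries, since the correlations of same-numbered libraries ran from -0.11 to 0.42. With the replicate block 1 gene was called for Pole4 loss in Trp53+/+ MEFs (Ccnd3, with 5.7% of all genes) and 1 for the interaction (Cdk6, with 3.49%), and for Trp53+/- in Pole4-/- MEFs Cdk6 was called (adjusted p = 0.0375) and Cdk2 was not (adjusted p = 0.0512). With the ribosomal RNA share Cdk6 (adjusted p = 0.0371) likewise took the place of Cdk2 (adjusted p = 0.0548), and Cdk6 was also called without the filter (adjusted p = 0.0248). Of 873 log2 values under alternatives, 37 changed sign, 0 of them in a called value. With library totals, which moved the median of all genes by 0.09 (Trp53-/- in Pole4+/+), 0.29 (Trp53+/- in Pole4-/-), -0.29 and -0.42 (Pole4 loss in Trp53+/+ and Trp53-/-) and -0.13 (interaction), these were Ccnd1 for Trp53-/- in Pole4-/- MEFs (-0.0065), Ccnd1 (0.23), Ccnd2 (0.021) and Ccnd3 (0.14) for Trp53+/- in Pole4-/- MEFs, Ccnd3 for Pole4 loss in Trp53+/+ MEFs (-0.067), and Ccnd1 (-0.37), Ccnd2 (-0.32), Cdk6 (-0.14), Cdk2 (-0.40) and Cdc25a (-0.10) for Pole4 loss in Trp53-/- MEFs. Without the filter Ccnd1 was at 0.0023 for Trp53+/- in Pole4-/- MEFs. With Xist as a covariate Ccnd3 (0.0054), Ccne1 (0.19) and Ccne2 (0.013) turned for Trp53+/- in Pole4+/+ MEFs, and Ccnd1 (-0.0015) and Cdk4 (0.012) for Pole4 loss in Trp53-/- MEFs. With a library left out the ranges that crossed 0 were -0.072 to 0.19 for Ccnd1 with Trp53-/- in Pole4-/- MEFs. In Pole4+/+ MEFs they were -0.0027 to 0.088 for Ccnd3, -0.21 to 0.36 for Ccne1 and -0.0086 to 0.51 for Cdc25a. For Trp53+/- they were -0.28 to 0.10 for Ccnd1 in Pole4-/- MEFs, and -0.053 to 0.032 for Ccnd3, -0.041 to 0.084 for Cdk6 and -0.15 to 0.046 for Ccne1 in Pole4+/+ MEFs. For Pole4 loss in Trp53-/- MEFs they were -0.021 to 0.10 for Ccnd1, -0.011 to 0.22 for Ccnd2, -0.051 to 0.041 for Cdk4 and -0.11 to 0.17 for Cdk2. The share of called genes that were higher was 57.8% for Trp53+/- in Pole4-/- MEFs but 97.0% with library totals and 80.8% without the filter, and 32.3% for Pole4 loss in Trp53+/+ MEFs but 2.54% and 13.7%. For the interaction it was 53.8% but 75.2% without the filter. Over all genes, calls for Pole4 loss in Trp53+/+ MEFs numbered 626, against 3 with Xist as a covariate and 3303 with only the libraries compared, those for Trp53+/- in Pole4-/- MEFs 805 against 101 with Xist as a covariate, 2163 with library totals and 2646 with only the libraries compared, those for Trp53-/- in Pole4+/+ MEFs 723 against 94 with only the libraries compared and 1312 with DESeq2, and those for the interaction 52 against 0 with Xist as a covariate and 1791 with DESeq2. The cause of these shifts was not tested. With 3 libraries a side, differences within the printed intervals were not resolved.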
